A study of Homo sapiens with 16 samples.

Results

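EIF5A, its paralogue EIF5A2, the enzymes that modify them and the genes that set the polyamine level were followed through 16 RNA-seq libraries of PC3 and HeyA8 cells. The 10 genes were chosen by symbol: EIF5A, EIF5A2, DHPS, DOHH, ODC1, AMD1, SRM, SMS, SAT1 and OAZ1. All 10 were found among the 26485 genes counted, and all 10 passed the filter on low counts in every comparison. PC3 is a prostate cancer cell line and HeyA8 an ovarian cancer cell line, both labelled as wild type. Cells of each line were mock-treated or transfected, with the lipid reagent RNAiMax, with siNT1 (a nontargeting control siRNA), siGGGGGC (an siRNA whose 6mer seed is GGGGGC) or siCAG, a further siRNA that the sources used here do not describe. The sample titles name siGGGGGC as siMxy_3AB, siNT1 as siNT_3AB and siCAG as siCAG_3AB, and the treatment labels give the names used here. The labels give a dose of 1 nM, and the study's methods give a higher one. RNA was taken 24 and 48 h later, and each line, treatment and time point gave 1 library.

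EIF5A is a translation factor that helps ribosomes through stretches that are hard to translate, such as runs of proline, and it is known as the only protein family carrying the amino acid hypusine. Hypusine is made on EIF5A from the polyamine spermidine, first by deoxyhypusine synthase (DHPS) and then by deoxyhypusine hydroxylase (DOHH). Spermidine is made from ornithine through ODC1, AMD1 and SRM, so the polyamine genes feed the modification of EIF5A, and cancer cells are known for high polyamine synthesis.

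Between 27937092 and 29971612 reads were counted per PC3 library and between 29128446 and 31790209 per HeyA8 library. The 24 and 48 h libraries served as the 2 replicates of a treatment, so every SD also holds what changed with time. By the study's methods cells were transfected in duplicates on plates, and the time points were lysed from different wells. Each line, treatment and time point has 1 library here. Whether the duplicates were independent transfections is not stated, so p-values measure only the spread between these libraries. The fits add a term for siRNA and a term for time. A change of an siRNA's effect between 24 and 48 h therefore counts as spread in the p-values. The siCAG libraries of HeyA8 stood apart. Their 24 and 48 h profiles differed by a root mean square of 0.824 on the log2 scale across genes, against 0.239 to 0.431 for the other HeyA8 treatments and 0.249 to 0.478 in PC3 cells. The 10 most counted genes took 8.04% and 7.39% of their reads, against 5.51% to 5.91% in the other HeyA8 libraries. Since all 8 libraries of a line share the estimate of spread, EIF5A, ODC1, AMD1, SRM, SAT1 and OAZ1 after siGGGGGC in HeyA8 cells are given below with and without the siCAG libraries.

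Markers of the labelled tissues were read over all libraries. In PC3 cells, the prostate gene KLK3 had 0 reads in every library, while HOXB13 lay between 86.2 and 524 CPM (TMM-normalised read counts scaled to 1000000 reads) and the keratin genes KRT8 and KRT18 were at 129 or more in every library. In HeyA8 cells, PAX8, a marker of Müllerian tumours, lay between 59.5 and 217 CPM, whereas ESR1 had 0 reads, MUC16 at most 5 and the epithelial genes EPCAM and CDH1 at most 48 and 3. KRT8 lay between 273 and 932 CPM there and KRT18 between 265 and 761. VIM, a mesenchymal filament gene, was at 4041 or more in HeyA8 and at 829 or more in PC3 cells.

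To see which of the 10 mRNAs hold a match to the seed of siGGGGGC, the longest annotated 3′ UTR of each gene was searched for GCCCCC on the mRNA strand. EIF5A and EIF5A2 were the 2 genes of the 10 whose longest 3′ UTR held it. With every annotated coding transcript searched they were 3, since DOHH held 1 match in a transcript other than the one with its longest 3′ UTR. EIF5A, on chromosome 17 from 7306999 to 7312463 (hg38, plus strand), had 5 matches in a 3′ UTR of 653 bases, which is 7.66 per kilobase. EIF5A2, on chromosome 3 from 170888415 to 170908637 (minus strand), had 1 match in 4942 bases. Of 18025 genes with an annotated coding transcript, 5407 held at least 1 match and 295, or 1.64%, held 5 or more. The matches are shown because EIF5A and EIF5A2 are the 2 genes of the 10 with the 6mer in the longest 3′ UTR. They are written 5′ to 3′ with GCCCCC in capitals, and the coordinates are those of the 6 capital letters. All 6 lie within the counted gene and within 1 exon.
EIF5A match 1, chr17:7311863-7311868: gaacctgcagagGCCCCCtccccgagcctg
EIF5A match 2, chr17:7312261-7312266: gactggggaccaGCCCCCtcgcctgcctgt
EIF5A match 3, chr17:7312336-7312341: gggaggggacctGCCCCCtcctcaggcatc
EIF5A match 4, chr17:7312366-7312371: tgggagggccctGCCCCCatgggctttacc
EIF5A match 5, chr17:7312456-7312461: gtttaatatgaaGCCCCCaa
EIF5A2 match, chr3:170892557-170892562: gcttttaactttGCCCCCaacgtttaaagg
Match 1 of EIF5A begins at base 53 after the stop codon, and the other 4 lie from base 451 on. In the EIF5A transcript with the longest coding sequence, the 3′ UTR spans 58 bases and holds 1 match. A match is a description of the sequence and no evidence of binding.

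**Figure D1:**
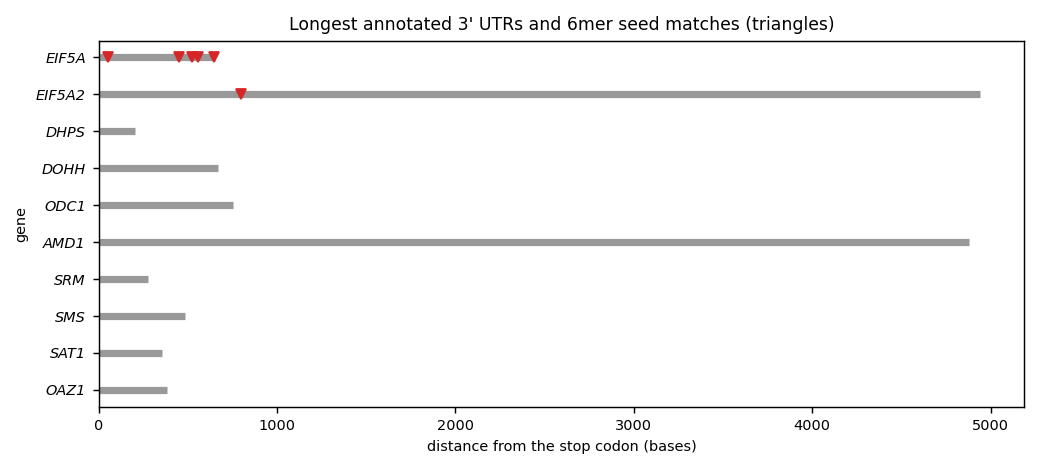
Longest annotated 3′ UTR of each gene (grey bars, in bases from the stop codon) with every GCCCCC match (red triangles). EIF5A holds 5 matches in 653 bases, EIF5A2 holds 1 in 4942 bases, and the other 8 genes hold 0 in the 3′ UTR drawn.

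Levels in mock-treated cells were compared between genes per kilobase of the deposited gene length, as CPM scaled over all 16 libraries. In PC3 cells SRM (128.6 and 132.6 at 24 and 48 h), ODC1 (123.3 and 109.5), OAZ1 (96.9 and 108) and EIF5A (84.9 and 82.3) led. SMS followed at 38.6 and 39.0 and SAT1 at 17.1 and 15.7. DHPS (12.2 and 11.8) and AMD1 (11.99 and 11.93) did not differ beyond their spread, and EIF5A2 (4.86 and 3.78) and DOHH (2.54 and 3.41) were lowest. In HeyA8 cells the order began with OAZ1 (252 and 302), EIF5A (218 and 227) and SRM (94.7 and 95.6). SMS (70.5 and 84.2) and ODC1 (66.7 and 54.3) came next. AMD1 followed at 18.6 and 17.8, SAT1 (11.7 and 16.6) and EIF5A2 (16.3 and 10.6) overlapped, and DOHH (7.87 and 6.02) and DHPS (4.54 and 5.81) were lowest. The deposited length of ODC1, 8730 bases, exceeds the 8184 bases its coordinates span, so this scale is uncertain. With the longest GENCODE transcript as the length, ODC1, EIF5A, SRM and OAZ1 led in PC3 cells and EIF5A, OAZ1, ODC1 and SMS in HeyA8 cells.

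Between the mock-treated lines, edgeR's quasi-likelihood test called 5 of the 10 genes (Benjamini-Hochberg adjusted p under 0.05 over all genes), where 45.5% of 15887 genes tested were called. The fit over all 16 libraries gave each line its own time term, shared by all its treatments. Its differences between the mock-treated lines are therefore fitted values at 24 h, and the transfected libraries also shape them. By this fit EIF5A was 3.05-fold lower in PC3 than in HeyA8 cells (log2 difference -1.61, standard error 0.48, adjusted p = 0.0187). Its log2 difference was smaller with the mock libraries alone, at -1.43, and with no term for time, at -1.41. OAZ1, the antizyme that binds ornithine decarboxylase and sends it to the proteasome, was lower as well, with a log2 difference of -1.52 (adjusted p = 0.00144). So was the spermine synthase gene SMS, with -0.91 (adjusted p = 0.00432). From the mock libraries alone these differences were -1.45 and -1.01. DHPS was higher in PC3 cells by 1.29 (adjusted p = 0.00259) and ODC1 by 0.83 (adjusted p = 0.0165). The mock libraries alone gave 1.20 for DHPS and 0.93 for ODC1. EIF5A2, DOHH, AMD1, SRM and SAT1 were not called over all 16 libraries, with log2 differences between -1.49 and 0.44. With the mock libraries alone 9 of the 10 genes were called, where 74.9% of all genes were. The median log2 difference of all genes was 0.09. Without the siCAG libraries 8 of the 10 genes were called, where 55.0% of all genes were. The EIF5A call was lost without the 24 h mock library of PC3 (adjusted p = 0.165) and without the 48 h one of HeyA8 (0.0797). The ODC1 call was lost without either 24 h mock library (adjusted p = 0.0921 for PC3 and 0.15 for HeyA8), and that of DHPS without the one of HeyA8 (0.0564). OAZ1 and SMS were called without any 1 of the 4 mock libraries.

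EIF5A had the lowest reads after siGGGGGC in both lines. All levels from here on are CPM, TMM-normalised within the line. In PC3 cells EIF5A was at 503 and 488 in the 24 and 48 h mock libraries, at 552.5 and 547 after siNT1, at 252 and 104 after siGGGGGC and at 552.4 and 517.5 after siCAG. In HeyA8 cells it was at 1031 and 1090 in mock, at 1195 and 1227 after siNT1, at 457.5 and 155 after siGGGGGC and at 1256 and 608 after siCAG. In both lines the 2 siGGGGGC libraries lay below the other 6, and the 48 h library was the lower one. In these bulk samples, fewer cells with the mRNA and less of it per cell cannot be told apart.

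In PC3 cells siGGGGGC against siNT1 lowered EIF5A from 550 ± 3.89 to 178 ± 104 CPM (SD, n = 2). The log2 fold change was -1.70 (standard error 0.31, edgeR adjusted p = 0.0228). It was -1.14 at 24 h and -2.39 at 48 h, each from 1 library per siRNA. EIF5A was 1 of 3 genes of the 10 called in this comparison, in which 9.67% of 15136 genes were called, 908 lower and 555 higher. EIF5A was no longer called without the siNT1 library of 24 h (adjusted p = 0.0879) or of 48 h (adjusted p = 0.199). Its adjusted p was 5.91e-04 without the siGGGGGC library of 24 h and 0.0205 without the later one.

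In HeyA8 cells siGGGGGC took EIF5A from 1211 ± 22.6 to 306 ± 214 CPM (SD, n = 2). The log2 difference was -2.15 (standard error 0.44), with an unadjusted p of 0.00203 and an adjusted p of 0.239 in edgeR. It ranked 68 from the lowest of 13872 genes. The share of genes called in this comparison was 0%, with 1352 genes at an unadjusted p under 0.05, and DESeq2 called 318 genes. Of the 10 genes, EIF5A and SRM were the 2 at an unadjusted p under 0.05, and DESeq2 called EIF5A. Without the siCAG libraries edgeR called 477 genes, EIF5A among them (log2 fold change -2.10, adjusted p = 0.0351), and with the 4 siGGGGGC and siNT1 libraries alone it called 1180, with an adjusted p of 2.88e-08 for EIF5A. EIF5A was the 1 gene of the 10 called without the siCAG libraries. DESeq2 gave EIF5A an adjusted p of 6.69e-04 over all 8 libraries. The log2 difference was -1.39 at 24 h and -2.99 at 48 h. The effect on EIF5A differed between the lines by 0.45 (standard error 0.59, adjusted p = 0.916), and this test of the difference called 0% of 15887 genes, with 1054 at an unadjusted p under 0.05 and 19 called by DESeq2. Of the 10 genes 1 had an unadjusted p under 0.05, and DESeq2 called 0.

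EIF5A shares 241 exonic bases with GPS2 on the opposite strand, and the sources used here do not state whether strand was used in counting. GPS2 had at most 10.3% of the reads of EIF5A in any PC3 library and at most 11.9% in HeyA8. It was itself at 736 reads after siNT1 and 665 after siGGGGGC at 24 h in PC3 cells and at 659 and 298 at 48 h. In HeyA8 cells GPS2 was at 936 and 816 reads at 24 h and at 964 and 567 at 48 h. EIF5AL1, a retrocopy of EIF5A whose reads cannot be told safely from those of EIF5A, had 4 to 30 reads per PC3 library and 18 to 231 per HeyA8 library. Its log2 difference after siGGGGGC was -0.59 (adjusted p = 0.602) in PC3 cells and -2.21 (adjusted p = 0.312) in HeyA8 cells. XPO4, the exportin that carries EIF5A out of the nucleus, had log2 differences of -0.28 (adjusted p = 0.346) and 0.11 (adjusted p = 0.94).

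EIF5A2, with a single seed match, was much less abundant. In PC3 cells it was at 30.5 and 23.7 CPM in mock, 38.2 and 28.3 after siNT1, 15.2 and 21.0 after siGGGGGC and 27.98 and 17.3 after siCAG. Both siGGGGGC libraries lay below both siNT1 libraries. The log2 difference of -0.84 (standard error 0.27) had an adjusted p of 0.0835 in edgeR and of 0.0358 in DESeq2. It was -1.32 at 24 h and -0.425 at 48 h. The fitted value was -0.41 without the siGGGGGC library of 24 h and -1.40 without the later one. In HeyA8 cells EIF5A2 was at 81.7 and 54.0 in mock, 95.5 and 68.8 after siNT1, 75.7 and 49.7 after siGGGGGC, and at 21.8 and 138 after siCAG. The siGGGGGC and siNT1 values overlapped there (log2 difference -0.39, adjusted p = 0.923), and the siCAG libraries held both the lowest and the highest value of the line.

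The enzymes of hypusine synthesis were not called in any siRNA comparison over all 8 libraries of a line. DHPS ranged from 57.5 to 78.2 CPM over the 8 PC3 libraries and from 20.6 to 36.3 over the HeyA8 libraries. Its log2 differences after siGGGGGC were -0.12 (adjusted p = 0.699) in PC3 and -0.10 (adjusted p = 0.945) in HeyA8 cells. DHPS shares 116 exonic bases with WDR83 on the opposite strand, which had up to 46.0% as many reads. DOHH ranged from 10.8 to 28.7 in PC3 and from 8.76 to 41.9 in HeyA8 cells, with log2 differences after siGGGGGC of 0.49 (adjusted p = 0.31) and -0.35 (adjusted p = 0.878). After siCAG in HeyA8 cells DOHH was at 37.1 and 8.76 CPM, against 41.9 and 28.6 after siNT1 (log2 difference -0.78, adjusted p = 0.326). It was called without the siCAG library of 24 h (-1.86, adjusted p = 0.00231) but not without the later one (-0.06, adjusted p = 0.864). DHPS was at 36.3 and 30.3 CPM after siCAG there, above the 23.3 and 27.8 after siNT1 (log2 difference 0.39, adjusted p = 0.326). It was called without the siCAG library of 48 h (0.65, adjusted p = 0.0317) but not without the earlier one (0.10, adjusted p = 0.728).

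**Figure D2:**
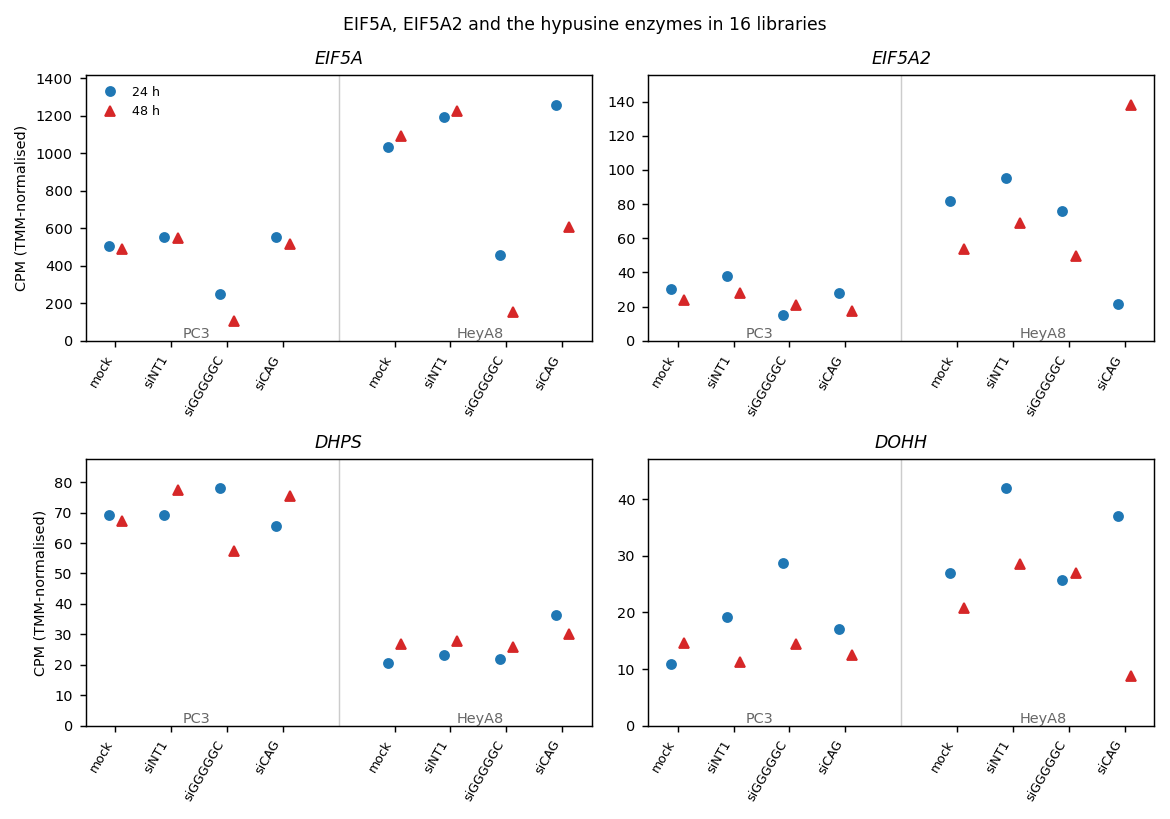
CPM of EIF5A, EIF5A2, DHPS and DOHH (y axis) by treatment (x axis) in PC3 and HeyA8 cells; each point is 1 library, a circle at 24 h or a triangle at 48 h. EIF5A was at 252 and 104 after siGGGGGC in PC3 and at 457.5 and 155 in HeyA8 cells, below every other library of the line, and EIF5A2 spread from 21.8 to 138 after siCAG in HeyA8 cells.

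ODC1, which makes putrescine and opens the pathway, rose after siGGGGGC in PC3 cells and fell after siCAG in both lines. In PC3 cells it was at 1217 and 1082 CPM in mock, 1514 and 1331 after siNT1, 2264 and 1989 after siGGGGGC and 805 and 650 after siCAG. The 4 treatments did not overlap. Against siNT1, siGGGGGC raised it 1.495-fold (log2 fold change 0.58, standard error 0.13, edgeR adjusted p = 0.0375), with the same 0.58 at both time points. This call was lost without either siNT1 library (adjusted p = 0.243 and 0.289), without the siGGGGGC library of 48 h (0.0746), with the 4 compared libraries alone (0.0823) and with no term for time (0.0811). In HeyA8 cells it was at 527 and 435 in mock, 530.0 and 507 after siNT1, 523 and 432 after siGGGGGC and 312 and 161 after siCAG. There siGGGGGC and siNT1 overlapped (log2 difference -0.13, standard error 0.26, adjusted p = 0.921, and 0.544 without the siCAG libraries). The difference in effect between the lines, 0.71, had an unadjusted p of 0.0416 and an adjusted p of 0.746.

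After siCAG, ODC1 fell 1.96-fold in PC3 cells (log2 fold change -0.97, standard error 0.13, edgeR adjusted p = 0.0149), and it was the 1 gene of the 10 called, where 1.2% of all genes were called. In HeyA8 cells it fell 2.28-fold (-1.19, standard error 0.26, adjusted p = 0.044) and was 1 of 2 called, where 7.81% of all genes were called. The siCAG and siGGGGGC comparisons share the siNT1 libraries. In PC3 cells the call was lost without any 1 of the 4 libraries compared (adjusted p from 0.0619 to 0.318), with log2 differences from -1.04 to -0.91. In HeyA8 cells it was lost without either siNT1 library (adjusted p = 0.187 and 0.378) but not without either siCAG library, where the log2 fold changes were -1.59 without the 24 h and -0.85 without the 48 h library. It was also lost with the 4 compared libraries alone (adjusted p = 0.107), with no term for time (0.0646) and against mock (0.0519). The siCAG effect on ODC1 differed between the lines by 0.10 (adjusted p = 0.948). That test called 0.636% of all genes and 0 of the 10 (2 at an unadjusted p under 0.05, against 14.6% of all genes, and 0 by DESeq2), and its median over all genes was -0.13, against which the values for single genes are to be read.

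AMD1 makes the decarboxylated S-adenosylmethionine that donates the aminopropyl groups. In PC3 cells it was at 219 and 218 CPM in mock, 194 and 133 after siNT1, 108 and 90.3 after siGGGGGC and 173 and 104 after siCAG. Both siGGGGGC libraries lay below all siNT1 and mock libraries, and the log2 difference of -0.70 (standard error 0.19) had an adjusted p of 0.0574 in edgeR. It was called by DESeq2 (adjusted p = 0.02) and with no filter on low counts (0.042). With the 4 compared libraries alone (0.101) or with no term for time (0.127) edgeR did not call it. The log2 difference lay between -0.83 and -0.61 with 1 of these 4 libraries left out. Against mock it was -1.15 (adjusted p = 0.0106), and the log2 difference of siNT1 from mock was -0.45 (adjusted p = 0.546). In HeyA8 cells AMD1 was at 270.5 and 262 in mock, 243 and 246 after siNT1, 241 and 169 after siGGGGGC and 51.1 and 104 after siCAG. It fell 3.19-fold after siCAG (log2 fold change -1.67, standard error 0.37, edgeR adjusted p = 0.0453), and both siCAG libraries were below the other 6. Leaving out the siCAG library of 24 h gave a log2 fold change of -1.15 and leaving out the later one gave -2.36, and both were called. Without an siNT1 library AMD1 was not called (adjusted p = 0.23 and 0.312), nor with the 4 compared libraries alone, where the adjusted p lay at the threshold. After siGGGGGC the log2 difference of AMD1 in HeyA8 cells was -0.245 over all 8 libraries (standard error 0.36, adjusted p = 0.888) and -0.26 without the siCAG libraries (adjusted p = 0.309). The siCAG effect on AMD1 differed between the lines by 1.32 (standard error 0.42, unadjusted p = 0.00877, adjusted p = 0.181).

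SRM adds the aminopropyl group that turns putrescine into spermidine, the substrate of DHPS. In PC3 cells it was at 185 and 191 CPM in mock, 203 and 217 after siNT1, 167 and 70.7 after siGGGGGC and 215 and 234 after siCAG. In HeyA8 cells it was at 109 and 112 in mock, 136 and 145 after siNT1, 92.9 and 38.7 after siGGGGGC and 168 and 65.7 after siCAG. The siGGGGGC values lay below those of mock and siNT1 in both lines, with the 48 h library lowest. The log2 differences were -0.87 (standard error 0.32, adjusted p = 0.113) in PC3 and -1.23 (standard error 0.43, adjusted p = 0.46) in HeyA8 cells, so SRM was not called in either. They were -0.276 and -0.547 at 24 h and -1.62 and -1.90 at 48 h, each from 1 library per siRNA. In PC3 cells the fitted value was -1.63 (adjusted p = 9.86e-04) without the siGGGGGC library of 24 h and -0.33 (adjusted p = 0.178) without the later one, and DESeq2 gave an adjusted p of 0.0469. In HeyA8 cells SRM was not called without the siCAG libraries (log2 difference -1.16, adjusted p = 0.0873) or by DESeq2 (adjusted p = 0.173), and it was called with the 4 libraries of siGGGGGC and siNT1 alone (adjusted p = 2.01e-04). SMS, which makes spermine from spermidine, had log2 differences after siGGGGGC of -0.30 (adjusted p = 0.218) and -0.32 (adjusted p = 0.669), and after siCAG of -0.03 (adjusted p = 0.95) in PC3 and -0.78 (adjusted p = 0.0627, and 0.00651 in DESeq2) in HeyA8 cells.

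SAT1, the acetyltransferase that marks polyamines for export and breakdown, was at 27.6 and 39.4 CPM after siNT1 and at 21.1 and 11.99 after siGGGGGC in HeyA8 cells. The 2 pairs did not overlap, and the log2 difference was -0.95 (standard error 0.41, adjusted p = 0.521). It was -1.79 (adjusted p = 0.243) without the siGGGGGC library of 24 h and -0.32 (adjusted p = 1) without the later one. It was called with the 4 compared libraries alone (adjusted p = 0.00886) but not without the siCAG libraries (adjusted p = 0.13). In PC3 cells, where SAT1 was at 56.5 and 46.1 after siNT1 and at 53.6 and 43.1 after siGGGGGC, the difference was -0.08 (adjusted p = 0.75). The effect differed between the lines by 0.87 (adjusted p = 0.801).

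OAZ1 rose after siGGGGGC in PC3 cells. It was at 258.5 and 288 CPM in mock, 301 and 361 after siNT1, 431 and 584 after siGGGGGC and 269 and 277 after siCAG. Both siGGGGGC libraries exceeded all others, a rise of 1.53-fold against siNT1 (log2 fold change 0.61, standard error 0.15, edgeR adjusted p = 0.0443). The call was lost without either siNT1 library (adjusted p = 0.261 and 0.31), without the siGGGGGC library of 48 h (0.128), with the 4 compared libraries alone (0.103), with no term for time (0.085) and without the siCAG libraries (0.0534). In HeyA8 cells OAZ1 was at 708 and 720 after siNT1 and at 576 and 894 after siGGGGGC, so that the values overlapped (log2 difference 0.03, adjusted p = 0.989, and 0.957 without the siCAG libraries).

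**Figure D3:**
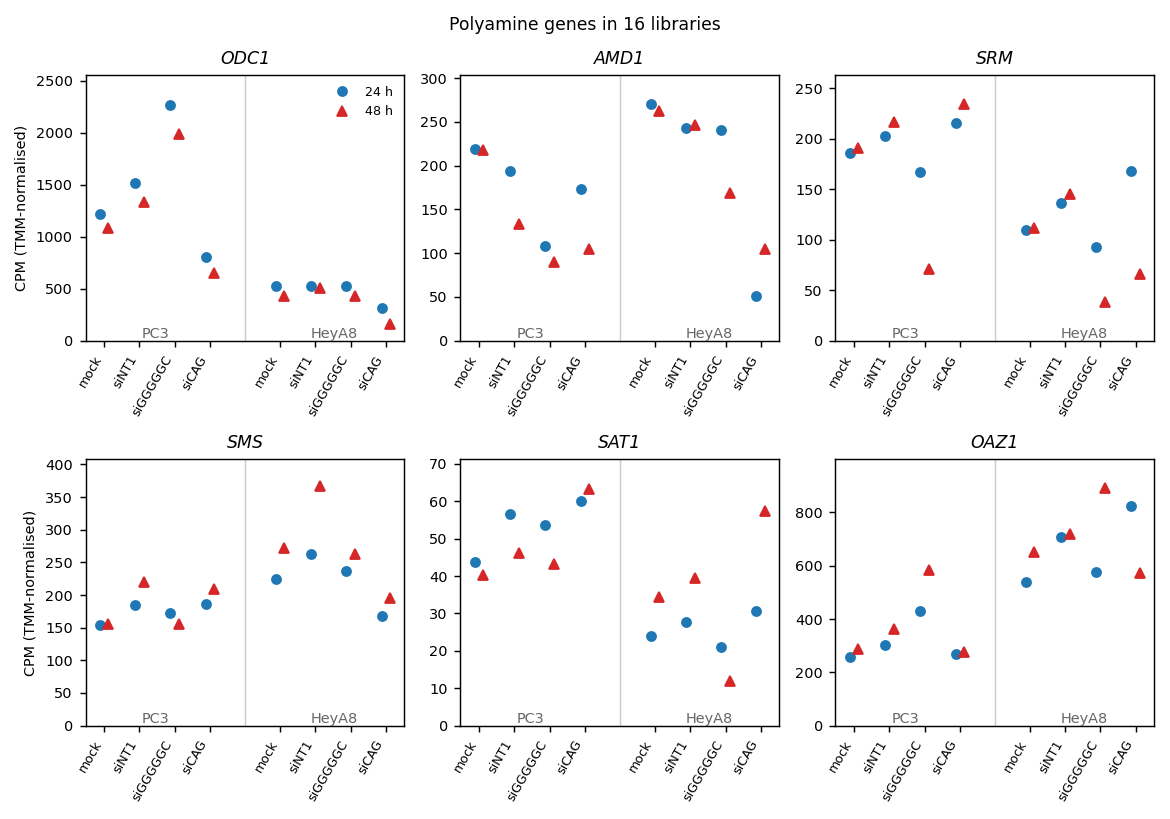
CPM of ODC1, AMD1, SRM, SMS, SAT1 and OAZ1 (y axis) by treatment (x axis); each point is 1 library, a circle at 24 h or a triangle at 48 h. In PC3 cells ODC1 reached 2264 and 1989 after siGGGGGC and 805 and 650 after siCAG, and in HeyA8 cells AMD1 stood at 51.1 and 104 after siCAG.

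**Figure D4:**
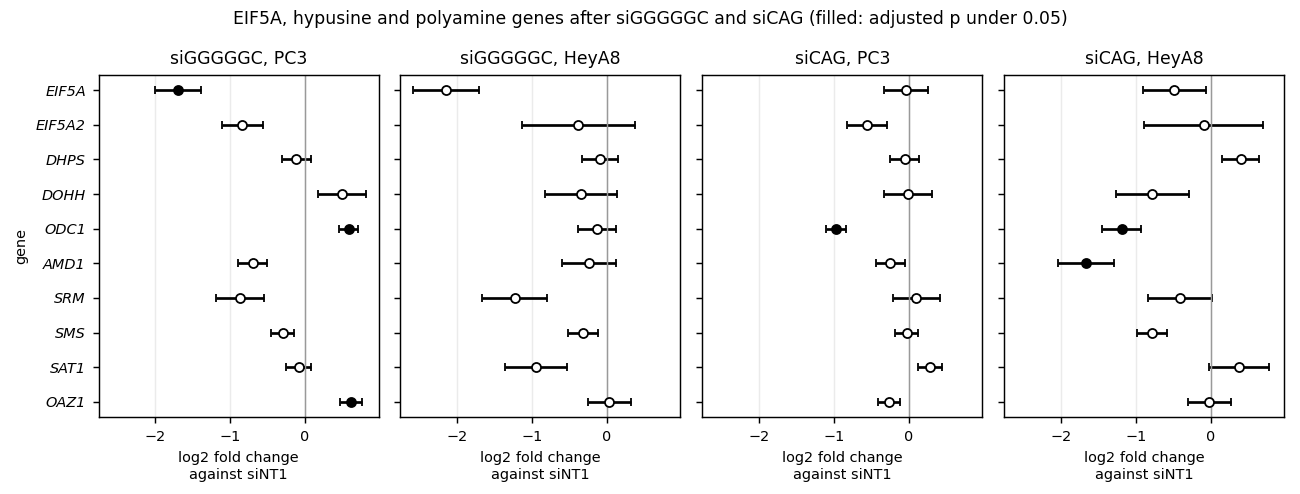
Log2 fold change against siNT1 (x axis) of the 10 genes (y axis) in the 4 siRNA comparisons, with the standard error of edgeR's fit as bars; filled points have an adjusted p under 0.05. EIF5A is lowest after siGGGGGC in both lines, at -1.70 and -2.15, and ODC1 is filled in 3 of the 4 panels.

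Counted together, 7 of the 10 genes lay below 0 and 3 above after siGGGGGC in PC3 cells, with a median log2 difference of -0.21 against 0.00 over all genes, and 9 of 10 lay below 0 in HeyA8 cells, with a median of -0.33. The 2 siGGGGGC and the 2 siNT1 libraries did not overlap for 7 of the 10 genes in PC3 cells, against 57.2% of all genes, and for 5 in HeyA8 cells, against 50.8%. After siCAG they did not overlap for 4 of the 10 in each line, against 44.9% and 55.6% of all genes. The control comparison of siNT1 with mock separated 7 of the 10 in PC3 cells, against 46.2% of all genes, and 5 in HeyA8 cells, against 40.3%. Of siNT1 against mock, 0 of the 10 genes were called in either line, where 0.231% of all genes were called in PC3 and 0% in HeyA8 cells. Of the 10 genes, 3 in PC3 and 0 in HeyA8 cells had an unadjusted p under 0.05, against 9.01% and 1.28% of all genes, and DESeq2 called 0 of them in both. Of all genes DESeq2 called 1 in the HeyA8 comparison, where 177 had an unadjusted p under 0.05. Of the 10 genes, 9 had a log2 difference above 0 in each line, AMD1 being the exception in both.

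Other genes of polyamine and methionine metabolism were read from a list of 22, of which 21 were tested in PC3 and 20 in HeyA8 cells. After siGGGGGC edgeR called 1 of the 21 as higher in PC3 cells, where 9.67% of all genes were called. In HeyA8 cells, where 0% of all genes were called, it called 0 of the 20, with 1 at an unadjusted p under 0.05, against 9.75% of all genes. The median log2 difference of the list was 0.12 in PC3 and -0.13 in HeyA8 cells, against 0.00 over all genes in both. The gene that rose was OAZ2, the second widely expressed antizyme. It was at 73.7 and 86.6 CPM after siNT1 and at 107 and 189 after siGGGGGC (log2 fold change 0.85, standard error 0.21, edgeR adjusted p = 0.0434). This call, and those given below for genes outside the 10, were not followed through the alternative fits. In HeyA8 cells OAZ2 was at 61.6 and 70.8 after siNT1 and at 72.5 and 111 after siGGGGGC, values that did not overlap (log2 difference 0.46, adjusted p = 0.683). AZIN1, the inhibitor that captures antizyme, had log2 differences of 0.25 (adjusted p = 0.274) and 0.10 (adjusted p = 0.955), and MAT2A, which makes S-adenosylmethionine, of -0.03 (adjusted p = 0.93) and -0.35 (adjusted p = 0.713).

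After siCAG, ARG2, the mitochondrial arginase that supplies ornithine, fell in PC3 cells from 51.9 and 55.4 to 23.8 and 24.7 CPM (log2 fold change -1.15, standard error 0.15, edgeR adjusted p = 0.0128), and it was the 1 gene of the 21 called there, against 1.2% of all genes. In HeyA8 cells 2 of the 20 rose and 1 fell after siCAG, where 7.81% of all genes were called. SMOX, the oxidase that turns spermine back into spermidine, rose from 3.57 and 2.16 to 10.8 and 8.14 (log2 fold change 1.74, standard error 0.32, adjusted p = 0.031). SAT2 rose from 8.93 and 10.3 to 21.5 and 18.6 (log2 fold change 1.06, adjusted p = 0.0463), and ENOPH1, of the methionine salvage pathway, fell (-1.10, adjusted p = 0.037). In PC3 cells SMOX was at 34.8 and 34.6 after siNT1 and 62.9 and 78.5 after siCAG, also without overlap, with a log2 difference of 1.04 (adjusted p = 0.217), and SAT2 had 0.41 (adjusted p = 0.44). ARG2 in HeyA8 cells was at 10.95 and 14.3 after siNT1 and 3.37 and 7.10 after siCAG (log2 difference -1.30, adjusted p = 0.0662).

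MTAP, which recycles the methylthioadenosine left over from spermidine and spermine synthesis, had 0 reads in all 8 HeyA8 libraries and 1298 to 2779 reads in each PC3 library. Taking 3 reads in a library as the floor that a count of 0 allows, its level in mock-treated PC3 cells was at least 704-fold higher than in mock-treated HeyA8 cells. This floor covers counting error only.

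Of 15 genes of translation elongation and diphthamide synthesis, 15 were tested in PC3 and 14 in HeyA8 cells. After siGGGGGC edgeR called 0 of them in PC3 cells, where 9.67% of all genes were called, with 1 at an unadjusted p under 0.05, against 32.1% of all genes. Of the 14 tested in HeyA8 cells it called 0, as of all genes (0%), with 0 at an unadjusted p under 0.05, against 9.75% of all genes. Their median log2 differences were 0.05 and -0.12. EEF2, the elongation factor that moves the ribosome along the mRNA, had log2 differences of 0.09 (adjusted p = 0.748) and -0.26 (adjusted p = 0.743). EEF1A1, which brings aminoacyl-tRNA to the ribosome, rose after siCAG in HeyA8 cells (log2 fold change 0.87, standard error 0.15, adjusted p = 0.0257) and was the 1 gene of this list called after siCAG in either line, where 7.81% of all genes were called in HeyA8 and 1.2% in PC3 cells.

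Finally, the genes whose pattern lay closest to those of EIF5A and ODC1 were sought over the 16 libraries, centred within each line, among 8347 genes with at least 10 CPM on average in each line. Closest to EIF5A were IMPDH1, SPR, POLR2E, ITPK1 and C20orf27, with root mean square log2 distances from 0.191 to 0.225, where the median gene was at 0.964. IMPDH1, an enzyme of guanine nucleotide synthesis, had log2 differences after siGGGGGC of -2.19 in PC3 and -2.57 in HeyA8 cells. SPR, sepiapterin reductase, had -1.86 and -2.30, and POLR2E, an RNA polymerase subunit, -1.86 and -1.93. Closest to ODC1 were SRPRB, RELT, ALG3, ABCF2 and LAMP1, with distances from 0.145 to 0.191 and a median gene at 0.632. SRPRB, a subunit of the signal recognition particle receptor, had log2 differences of 0.46 after siGGGGGC and -1.18 after siCAG in PC3 cells and of -0.13 and -1.57 in HeyA8 cells. The libraries are shared by all these genes, so the distances describe likeness and carry no test.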

How the data were processed

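Total RNA, taken with the miRNeasy kit, was made into Illumina TruSeq total RNA libraries. Per the study's methods, the authors trimmed reads with Trimmomatic and placed them on hg38 with Tophat or STAR (STAR is also in the submitters' processing notes), and reads on exons were summed by htseq. The deposited values are raw read counts, not normalized, for 26485 genes. A column of gene length was also deposited, in bases, and 0 columns belonged to no sample.

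Counts were tested with edgeR 4.0.16 (limma 3.58.1, R 4.3.3) by the quasi-likelihood test, after filterByExpr and TMM scaling, with siRNA and time as terms over the 8 libraries of a line. The difference between the lines was fitted over all 16 libraries, with a time term for each line. P-values were Benjamini-Hochberg adjusted over all genes tested, and a gene was called under 0.05. The standard error is the log2 fold change divided by the root of F. Values at 1 time point are log2 ratios of CPM with 0.1 added. Likeness was taken on log2 values with 1 added. The coefficient of variation that the terms left unexplained was 18.0% (PC3) and 28.2% (HeyA8). The fits were also run on simulated data, and the outcome is not given here.

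3′ UTRs came from GENCODE release 44 on hg38 (protein-coding transcripts with an annotated stop codon), matched by symbol, with Python 3.11.15. The authors used another annotation.

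The 10 genes, the other lists and the tests were chosen with earlier results of these data known. From the other lists, genes called in any siRNA comparison were named, at most 5 per list and comparison, together with EEF2, EIF5AL1, XPO4, AZIN1, SMOX, SAT2, MAT2A and MTAP. GPS2 and WDR83 were named for their overlap with 2 of the 10. Alternatives were RLE scaling, DESeq2 1.42.0, a looser and a stricter filter, a fit with time left out, the compared libraries alone and mock as the control. Each library of the compared conditions was also left out in turn. Single genes were followed through the alternatives for the 10 genes only. The fits without the siCAG libraries were chosen after seeing the data.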

Additional observations from a re-analysis of the deposited data

Results flagged for a closer look

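EIF5A2 in HeyA8 cells was listed because siCAG moved it in opposite directions at the 2 time points. Against siNT1 the log2 difference was -2.13 at 24 h (21.8 against 95.5 CPM) and 1.01 at 48 h (138 against 68.8), a change of 3.13 between the time points. Each value rests on 1 library per siRNA, so the difference was not tested. Both siCAG libraries of HeyA8 stand apart from the others of the line, and their part in this value was not tested.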

How the results depend on the processing

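Of the 109 alternatives to a count of the 10 genes, 82 stayed within 1.5 times the count reported and 27 moved. Most of the 82 were counts of 0 that stayed at 0, in comparisons where 0% to 0.636% of all genes were called. With so few genes called, a count that stays at 0 says little about stability. The share of all genes that the same fit called stands in parentheses. A library left out was always one of the compared conditions, and the other libraries of the fit were not left out. For siGGGGGC against siNT1 in PC3 cells, 3 of the 10 genes were called (9.67%), 6 with DESeq2 (18.9%), 1 without the replicate block, that is with no term for time (4.13%), 1 with the compared libraries alone (2.99%) and 0 to 4 with a library left out (0% to 23.5%). In HeyA8 cells, where 0 were called (0%), it was 1 with DESeq2 (2.29%), 1 without the siCAG libraries (3.52%) and 3 with the compared libraries alone (8.86%). For siCAG in PC3 cells, 1 was called (1.2%), 2 with the compared libraries alone (15.99%) and 0 with any library left out (0.191% to 0.796%). In HeyA8 cells, 2 were called (7.81%), 1 without the replicate block (8.56%), 1 against mock (8.97%), 0 with the compared libraries alone (4.31%) and 0 to 5 with a library left out (0.291% to 32.9%). For siNT1 against mock in HeyA8 cells, the compared libraries alone gave 5 (11.8%) where 0 were called (0%). For the difference in the siCAG effect between the lines, with 0 called (0.636%), it was 0 to 2 with a library left out (0.00608% to 9.24%). Between the mock-treated lines 5 were called (45.5%), 9 with the compared libraries alone (74.9%), 8 without the siCAG libraries (55.0%) and 3 to 6 with a library left out (26.3% to 34.9%). The cause of these shifts was not tested.

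The log2 difference of EIF5A2 reversed without a library: it lay from -2.18 to 1.04 for siCAG against siNT1 in HeyA8 cells and from -1.69 to 1.45 for the difference of this effect between the lines. Of the 20 levels per kilobase, 17 moved with the longest transcript as the length. GCCCCC was found in 2 of the 10 genes with the longest 3′ UTR or the longest coding sequence and in 3 with any transcript (DOHH was the third), and EIF5A held 1 match in place of 5 with the longest coding sequence. With at least 27937092 reads a library, each of the 10 genes had at least 270 reads in every library.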
